A study of Homo sapiens with 6 samples.

Results

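The AP-1 factors examined were 10 genes: FOS, FOSB, FOSL1 and FOSL2 of the FOS family, JUN, JUNB and JUND of the JUN family, the short repressors JDP2 and BATF3, and CREB5. They were taken as all probe sets annotated to exactly 1 gene symbol, that symbol being one of the 10. This gave 24 of 54613 probe sets and 10 of the 19775 genes that had such a probe set. RNA came from the human bile duct carcinoma lines KKU-100 and HuCCT1. Each line was treated for 6 h with solvent, with 1 μM or with 10 μM regorafenib, an oral inhibitor of several receptor kinases and of RAF kinases, and was measured on Affymetrix expression arrays at 1 array per line and treatment, 6 arrays in all. The doses are those of the sample labels, and the paper's text gives lower ones. The labels describe all cells, solvent controls included, as stably transduced and selected with puromycin, and the construct is not given in the sources used here.

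AP-1 is not a single protein but a family of dimers that bind DNA through a basic region and hold together through a leucine zipper. FOS proteins need a JUN partner, whereas JUN proteins also pair with themselves, and the dimers bind the TPA response element and, with CREB or ATF partners, the cAMP response element (CRE). FOS and FOSB are immediate early genes that growth factor signalling through ERK switches on within minutes, FOSL1 follows later and depends on sustained ERK activity, and JUN is induced through its own promoter element. In carcinoma cells AP-1 is known for driving genes of invasion and matrix breakdown. JDP2 and BATF3 consist of little more than the zipper region and lack an activation domain.

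Promoter sequences are shown for some of the members with a match in the printed stretch, since AP-1 and CREB dimers can act on the AP-1 genes through such short elements. Promoter windows of 250 bases before to 50 after the start were held for 8 of the 10 members in RefSeq sequences of build GRCh38.p14, as 12 windows among 35116. Both strands were searched for the TPA response element TGACTCA, the full CRE TGACGTCA, the related element TGACATCA and the CRE core TGACGT, which also matches within the full CRE. The CRE core was found in FOS, FOSB, FOSL2, JUND and in 1 of the 3 windows of JDP2, while 7.98% of all windows hold it. TGACATCA was found in JUN (2.61% of all windows), TGACTCA in FOSL2 and in 1 of the 3 windows of CREB5 (4.95%), and TGACGTCA in JUND (1.85%). None of these motifs was found in the window of JUNB. A match is a description of letters and says nothing of binding in these cells. The 120 bases before the start follow for 5 of these members, with the matches in capitals. JDP2 and CREB5 were higher than solvent past 1.5-fold in some comparison, and FOS, FOSB and JUN lower. FOSL2 and JUND also have a match in this stretch and are not printed. The stretches are on chr14:75278708-75278827 (plus strand) for FOS, chr19:45467876-45467995 (plus) for FOSB, chr1:58784048-58784167 (minus) for JUN, chr14:75427902-75428021 (plus) for JDP2 and chr7:28686013-28686132 (plus) for CREB5.
FOS: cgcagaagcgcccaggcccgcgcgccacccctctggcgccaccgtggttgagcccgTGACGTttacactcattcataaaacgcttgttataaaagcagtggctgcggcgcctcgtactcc
FOSB: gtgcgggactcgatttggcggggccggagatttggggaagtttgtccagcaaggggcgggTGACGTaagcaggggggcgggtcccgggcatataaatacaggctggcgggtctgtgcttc
JUN: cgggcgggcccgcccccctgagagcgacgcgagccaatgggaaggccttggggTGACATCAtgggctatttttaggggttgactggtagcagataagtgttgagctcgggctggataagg
JDP2: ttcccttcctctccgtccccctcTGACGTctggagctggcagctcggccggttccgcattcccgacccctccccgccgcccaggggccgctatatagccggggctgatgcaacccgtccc
CREB5: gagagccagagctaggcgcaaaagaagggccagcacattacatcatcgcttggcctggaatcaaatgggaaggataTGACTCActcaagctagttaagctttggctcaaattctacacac
The match starts 64 bases before the start in FOS, 60 in FOSB, 67 in JUN, 97 in JDP2 and 44 in CREB5. FOS and JDP2 are neighbours on chromosome 14, with 0 protein-coding genes of the RefSeq table between them, and BATF is the next one after JDP2.

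Signals are linear intensities, and the array medians were 28.8 to 29.3. Arrays of the same line had a Pearson r of 0.987 to 0.993 across probe sets on the log2 scale, and arrays of different lines 0.928 to 0.938. Of 7 measured markers of biliary epithelium, KRT19 and EPCAM lay between 8.62 and 11.05 on the KKU-100 arrays, below the array medians, and between 6431.67 and 9321.11 on the HuCCT1 arrays. KRT7, KRT8, KRT18 and SOX9 lay between 546.49 and 12615.06 in KKU-100 and between 643.53 and 11038.44 in HuCCT1, and CFTR between 15.64 and 19.09 in KKU-100 and between 54.74 and 140.45 in HuCCT1. The leukocyte marker PTPRC and the hepatocyte marker ALB were at 6.96 to 10.75 on all 6 arrays. Only 1 of 4 leukocyte and 2 of 4 hepatocyte markers lay below the array median on every array. The leukocyte markers CD79A and CD3E lay at 100.84 to 138.42 and 37.33 to 44.28, above the array medians. The hepatocyte markers TTR and CYP3A4 did so too, at 76.74 to 88.55 and 57.88 to 82.38. Of 4 fibroblast and muscle markers, COL3A1 and ACTA2 lay between 538.04 and 778.53 in KKU-100 and between 6.52 and 147.15 in HuCCT1, while COL1A1 and DCN lay between 38.53 and 197 in KKU-100 and between 38.66 and 169.19 in HuCCT1. The part of this line difference in the results was not tested. A change is given as the log2 difference from the solvent array of that line. A gene was counted when it was past 1.5-fold, the cutoff in the paper, and its mean signal in that line was at or above the median probe set. With 1 array per condition these differences have no replicates and no p, and the doses of a line were set against the same solvent array, so a change at both doses is not a repeat. RNA per cell and number of cells cannot be told apart here, and levels of different probe sets are not compared.

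Of the FOS family, FOS and FOSB were near or below the array median in treated KKU-100 cells, and FOSL1 was lower than solvent in both lines. FOS, the best known immediate early gene, had a signal of 937.1 in KKU-100 with solvent, 30.96 at 1 μM and 29.6 at 10 μM, which is 30.3-fold and 31.7-fold lower than solvent. Both treated signals were close to the array median, and a ratio to so dim a signal is imprecise. In HuCCT1 the FOS signal was 55.6 with solvent, 33.4 at 1 μM and 49.5 at 10 μM, with log2 differences of −0.74, past the cutoff, and −0.17. The KKU-100 solvent array thus stood apart from the other 5 arrays, which lay between 29.6 and 55.6. FOSB, its close relative, showed the same shape, with 143.4, 26.9 and 25.4 in KKU-100 (log2 differences −2.41 and −2.50). In HuCCT1 FOSB had 18.3, 24.3 and 25.8, below the array median on every array, and was not counted in that line.

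FOSL1 encodes FRA1, the FOS protein most tied to ERK activity in epithelial cancers. Its signal in KKU-100 was 354.0 with solvent, 88.7 at 1 μM and 125.4 at 10 μM, a log2 difference of −2.00 and −1.50. In HuCCT1 it was 860.5, 335.6 and 305.3, a difference of −1.36 and −1.50. Within each line the treated arrays lay below the solvent array, and FOSL1 was the only FOS family gene past the cutoff in all 4 comparisons. FOSL2, which encodes FRA2, had 535.4, 682.9 and 533.8 in KKU-100 (0.35 and 0.00) against 1299.0, 928.4 and 793.9 in HuCCT1 (−0.48 and −0.71). All 5 FOSL2 probe sets were negative at both doses in HuCCT1, between −0.09 and −0.71, and at 1 μM in KKU-100 all 5 were positive, between 0.10 and 0.91.

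**Figure D1:**
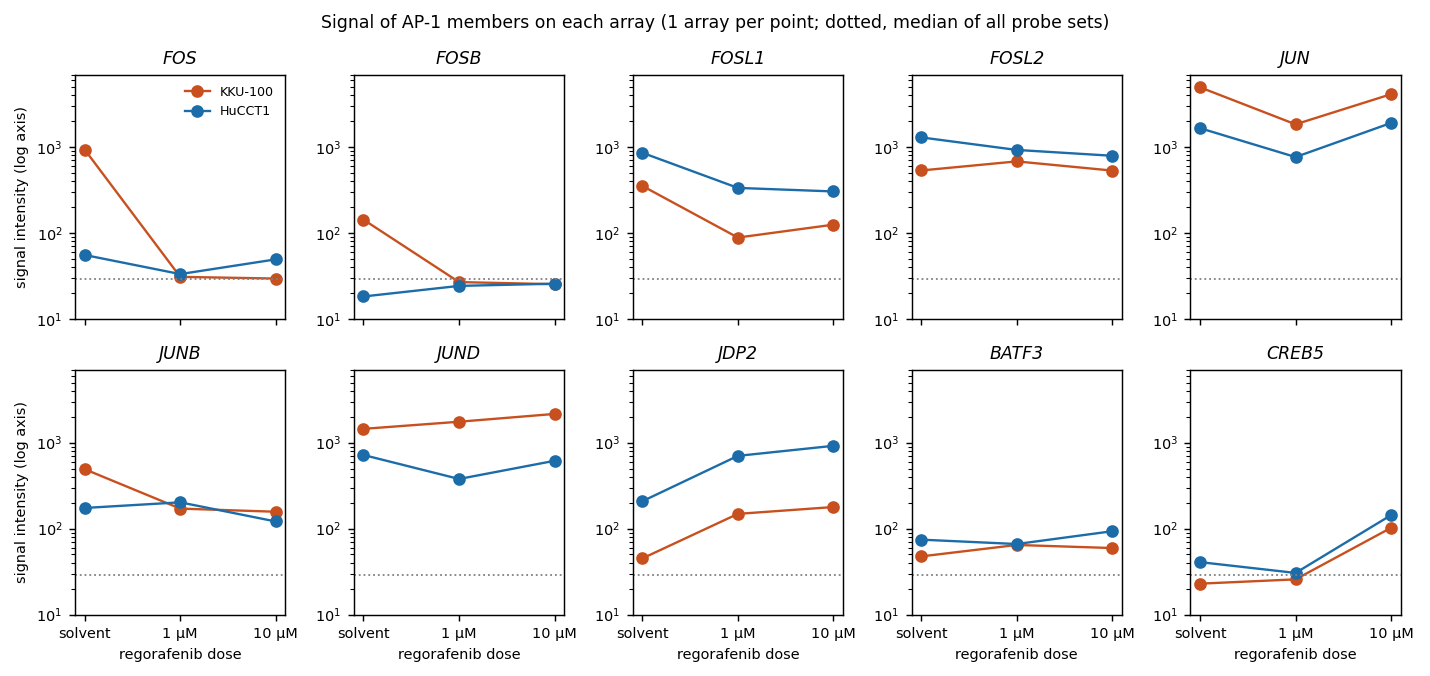
Signal intensity (log axis) of the 10 AP-1 genes with solvent, 1 μM and 10 μM regorafenib in KKU-100 (orange) and HuCCT1 (blue), 1 array per point and 1 probe set per gene, with the median of all probe sets dotted. FOS stands at 937.1 on the KKU-100 solvent array and between 29.6 and 55.6 on the other 5, and JUN dips at 1 μM in both lines.

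Of the JUN family, JUN itself was low at 1 μM and back near its solvent level at 10 μM in both lines. JUN is the main partner of FOS proteins and the strongest activator of its family. Its signal in KKU-100 was 4972.7 with solvent, 1843.7 at 1 μM and 4134.2 at 10 μM, and in HuCCT1 it was 1663.7, 767.0 and 1913.2. The log2 differences were −1.43 and −0.27 in KKU-100 and −1.12 and 0.20 in HuCCT1. The JUN array at 1 μM was thus the lowest of the 3 in each line. The other 3 JUN probe sets were lowest at 1 μM as well, with log2 differences between −1.19 and −2.26 in KKU-100 and between −1.21 and −1.58 in HuCCT1. At 10 μM they lay between −0.07 and −0.91 in KKU-100, where 1 of them was past the cutoff, and between −0.09 and 0.46 in HuCCT1. The signal at 10 μM was 2.16-fold to 2.56-fold that at 1 μM in KKU-100 and 2.41-fold to 3.17-fold in HuCCT1 over the 4 probe sets.

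JUNB, which activates less strongly than JUN and often opposes it, followed FOS rather than JUN in KKU-100. Its signal there was 491.2 with solvent, 170.9 at 1 μM and 157.1 at 10 μM (−1.52 and −1.64). In HuCCT1 it was 173.8, 202.2 and 121.0 (0.22 and −0.52), within the cutoff. JUND, the family member present in resting cells, had 1448.1, 1752.2 and 2159.7 in KKU-100 (0.28 and 0.58) and 718.7, 378.0 and 615.3 in HuCCT1 (−0.93 and −0.22). Of the 4 comparisons JUND was past the cutoff at 1 μM in HuCCT1, and at 10 μM in KKU-100 it lay just inside (0.62 after quantile normalization, past the cutoff). The lower value in HuCCT1 was −0.28 as the median over its 4 probe sets. The other 3 JUND probe sets were dim, at 17.94 to 37.6, and lay within 1.5-fold in all comparisons.

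JDP2 was higher than solvent in both lines at both doses. JDP2 pairs with JUN and other zipper proteins and represses AP-1 sites, partly by recruiting histone deacetylase. Its signal in KKU-100 was 45.0 with solvent, 148.4 at 1 μM and 178.3 at 10 μM, or 3.30-fold and 3.96-fold of solvent. In HuCCT1 it was 208.1, 702.1 and 918.9, or 3.38-fold and 4.42-fold. In each line the 3 arrays were in the order of the dose. The second JDP2 probe set had log2 differences of 1.37 and 0.85 in HuCCT1. In KKU-100, where it lay below the level filter, it had 0.54 and −0.20. BATF3, a factor best known from dendritic cells, stayed within the cutoff, with 47.5, 64.5 and 59.4 in KKU-100 (0.44 and 0.32) and 74.4, 66.1 and 93.2 in HuCCT1 (−0.17 and 0.33).

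CREB5, which binds CRE sites as a partner of JUN, was higher at 10 μM in both lines by the probe set with its highest mean log2 signal. This probe set had 22.9 with solvent, 25.7 at 1 μM and 102.3 at 10 μM in KKU-100, and 40.7, 30.5 and 143.5 in HuCCT1. The log2 differences at 10 μM were 2.16 and 1.82. In HuCCT1 a deeper dip at 1 μM appeared in another probe set, with 115.1, 18.1 and 287.8 (−2.67 and 1.32), and in one more (−1.41 and 1.36). The first of these had the highest CREB5 signals in HuCCT1, and in KKU-100 it had 16.7, 11.2 and 15.3 (−0.57 and −0.13). The order over the doses in HuCCT1, lowest at 1 μM and highest at 10 μM, was the same in these 3 probe sets. In KKU-100 the other 3 CREB5 probe sets lay below the level filter, between −0.57 and 0.10. The higher CREB5 signal in KKU-100 rests on 1 probe set, and the median over all 4 was −0.03 at 10 μM.

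**Figure D2:**
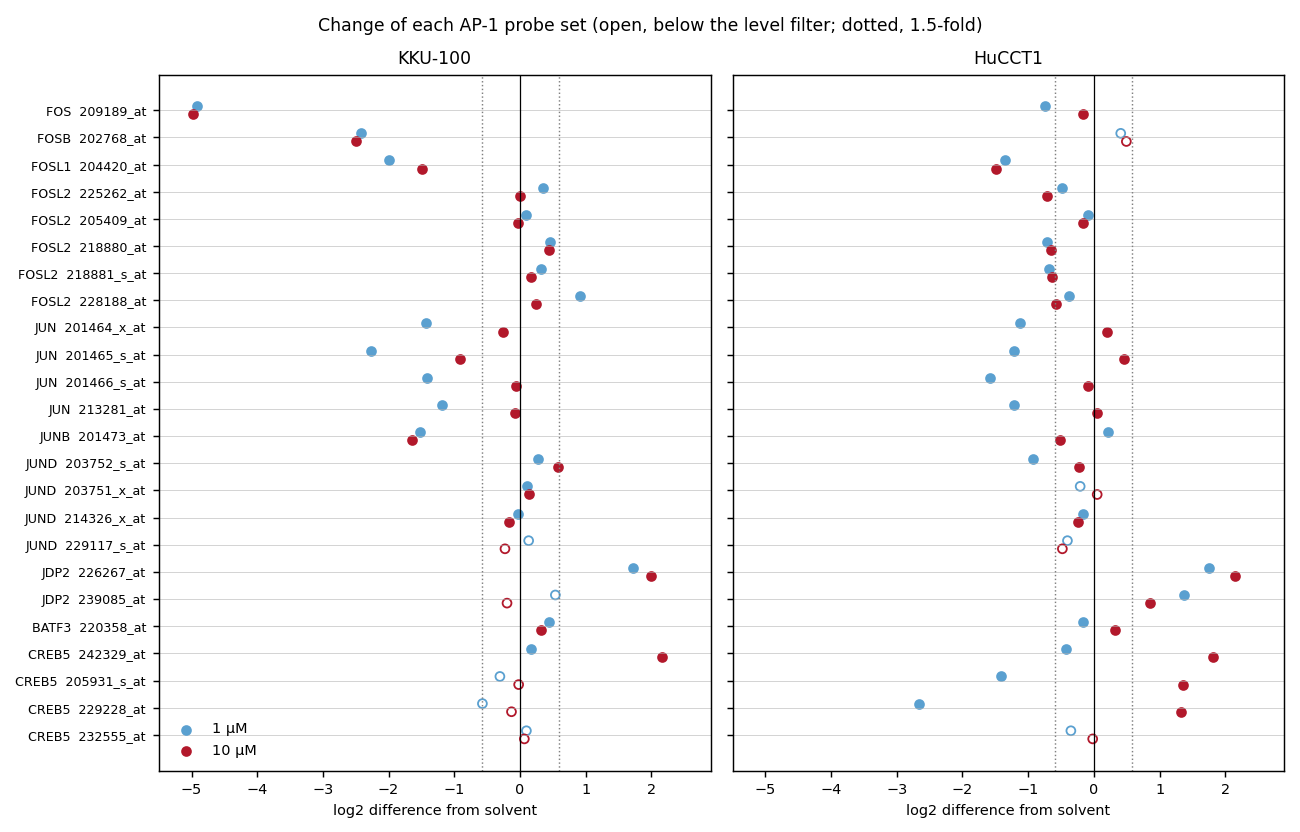
Log2 difference from solvent of all 24 AP-1 probe sets in KKU-100 (left) and HuCCT1 (right) at 1 μM (blue) and 10 μM (red), 1 array per condition, with open circles for probe sets below the level filter of the line and dotted lines at 1.5-fold. The 4 JUN probe sets lie at −1.12 or below at 1 μM in both lines, and FOS lies at −4.92 and −4.98 in KKU-100.

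The members were then counted. In KKU-100 at 1 μM, FOS, FOSB, FOSL1, JUN and JUNB were lower and JDP2 was higher, 5 and 1 of 10, where 7.32% and 9.75% of all 12694 genes past the filter were lower and higher. At 10 μM in that line FOS, FOSB, FOSL1 and JUNB were lower and JDP2 and CREB5 higher, 4 and 2 of 10, beside 4.86% and 9.44% of all genes. In KKU-100 FOSB was above the array median with solvent alone and CREB5 at 10 μM alone, so each passed the filter through the array where it was high. With the filter at the 60th percentile 4 members were lower and 1 higher at 1 μM in KKU-100, and 3 lower and 1 higher at 10 μM. The share of all genes was not taken at that filter. In HuCCT1 at 1 μM, FOS, FOSL1, JUN and JUND were lower and JDP2 higher, 4 and 1 of 9, beside 3.32% and 3.68% of 12789 genes. At 10 μM FOSL1 and FOSL2 were lower and JDP2 and CREB5 higher, 2 and 2 of 9, beside 6.44% and 8.23%. FOSL1 and JDP2 were the members past the cutoff in all 4 comparisons. The median log2 difference of the members was −0.63 and −0.14 in KKU-100 and −0.48 and −0.17 in HuCCT1 at 1 μM and 10 μM, while that of all genes lay between 0.02 and 0.06.

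The balance of activating and repressing subunits was taken as the mean log2 difference of FOS, FOSB, JUN, JUNB and JUND minus that of JDP2 and BATF3. FOSL1, FOSL2 and CREB5 were placed on neither side, so the balance does not cover all members. The balance was −3.08 at 1 μM and −2.92 at 10 μM in KKU-100, and −1.22 and −1.28 in HuCCT1. In KKU-100 the activators averaged −2.00 and −1.76 and the repressors 1.08 and 1.15. In HuCCT1 at 10 μM the activators averaged −0.04, with a range from −0.52 to 0.49, and the repressors 1.23, with JDP2 at 2.14 and BATF3 at 0.33. The log2 difference of FOS minus that of JDP2 was −6.64 and −6.97 in KKU-100 and −2.49 and −2.31 in HuCCT1. That of JUN minus JDP2 was −3.15 and −2.25 in KKU-100 and −2.87 and −1.94 in HuCCT1. These values say that the transcripts changed unequally, and give no measure of protein or of dimers. No test applies to them, since each rests on 1 array per condition.

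**Figure D3:**
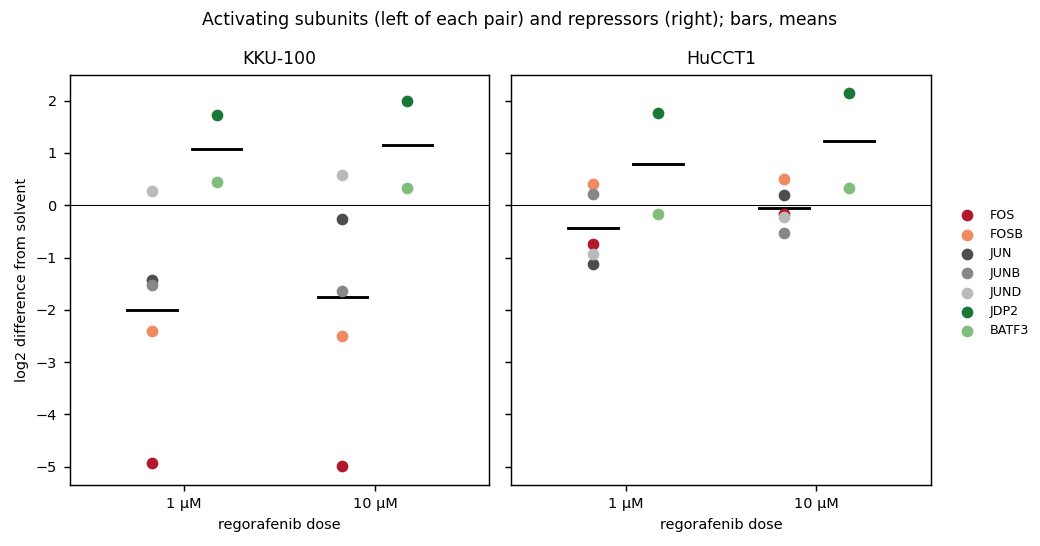
Log2 difference from solvent of the activating subunits FOS, FOSB, JUN, JUNB and JUND (left of each pair) and of the repressors JDP2 and BATF3 (right), with bars at the means, in KKU-100 and HuCCT1 at 1 μM and 10 μM. The bars stand at −2.00 and 1.08 at 1 μM in KKU-100 and at −0.04 and 1.23 at 10 μM in HuCCT1.

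A change common to both lines was tested with limma over all 27307 probe sets with the line as a block. With an adjusted p under 0.05 as the threshold it called 0% of probe sets, and 0 of the 10 members, for each dose and for the difference of the doses. At an unadjusted p under 0.05 limma had 10.7% of probe sets at 1 μM, 14.9% at 10 μM and 9.73% between the doses. At 1 μM, JDP2 was higher by a log2 of 1.74 (standard error 0.15, unadjusted p = 5.83e-05), JUN lower by −1.27 (0.13, unadjusted p = 0.000132) and FOSL1 by −1.68 (0.22, unadjusted p = 0.000402), each with an adjusted p of 0.394. At 10 μM JDP2 stood at 2.06 (standard error 0.15, adjusted p = 0.105) and CREB5 at 1.99 (0.18, adjusted p = 0.105). FOSL1 stood at −1.50 (0.22, adjusted p = 0.139) and JUNB at −1.08 (0.41, adjusted p = 0.315). FOS averaged −2.83 and −2.58 at 1 μM and 10 μM with a standard error of 1.13 (adjusted p = 0.467 and 0.372). Without the HuCCT1 solvent array the FOS values were −5.08 and −4.83, and without the KKU-100 solvent array −0.58 and −0.33. JUNB at 10 μM was −1.80 and −0.37 without these arrays. JDP2 at 10 μM was 0.33 by its second probe set (limma unadjusted p = 0.279) and 1.20 as the median of both (adjusted p = 0.138). CREB5 at 10 μM was 0.60 by the other probe set tested (limma unadjusted p = 0.475). By the probe set that stands for each gene, the single-line values at the dose given shared their sign. The values without a solvent array rest on a solvent level from 1 line only.

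The comparison of 10 μM with 1 μM does not use the solvent arrays directly. In it JUN was higher by a log2 of 1.24 (standard error 0.13, unadjusted p = 0.00015, limma adjusted p = 0.274) and CREB5 by 2.11 (0.18, unadjusted p = 5.23e-05, limma adjusted p = 0.248). The differences in the single lines were 1.16 in KKU-100 and 1.32 in HuCCT1 for JUN, and 1.99 and 2.23 for CREB5. The other CREB5 probe sets had 0.29, 0.44 and −0.03 in KKU-100, where they lay below the level filter. In HuCCT1 they had 2.77, 3.99 and 0.33. Over the alternatives, with each array left out in turn among them, JUN lay between 1.09 and 1.47 and CREB5 between 1.91 and 2.32. These ranges cover 16 settings for JUN but 14 for CREB5. With gene medians and with the stricter level filter CREB5 was not in the fit, so its range leaves these settings out. The CREB5 signals at 1 μM were close to the array median, at 25.7 in KKU-100 and 30.5 in HuCCT1. Whether the 2 genes passed limma's threshold depended on the array left out. The other 8 members had an unadjusted p above 0.05 here.

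Some AP-1 genes differed in level between the lines, in about the share of all probe sets that did. In the same limma fit, JUN was higher in KKU-100 than in HuCCT1 by a log2 of 1.32 (standard error 0.11, adjusted p = 0.000458) and JUND by 1.68 (0.23, adjusted p = 0.0027). JDP2 was lower in KKU-100 by −2.27 (0.13, adjusted p = 0.000138), FOSL1 by −1.49 (0.18, adjusted p = 0.00153), FOSL2 by −0.76 (0.19, adjusted p = 0.0192) and CREB5 by −0.52 (0.15, adjusted p = 0.0329). That is 6 of 10 members, beside 51.1% of all probe sets, so the share is near the background. The arrays of a line differ in treatment and are not replicates, so these p-values measure only the spread between these arrays. FOS and FOSB did not pass (adjusted p = 0.381 and 0.206). With solvent, FOS was 16.8-fold and FOSB 7.83-fold higher in KKU-100, and at either dose both were within 2-fold between the lines. FOSL2 rests on its brightest probe set, since the median over its 5 probe sets stood at 0.25 (limma adjusted p = 0.459). JUND was higher by 0.35 as the median over its 4 probe sets (limma adjusted p = 0.0441), and 1 dim probe set of JUND gave 0.24 (adjusted p = 0.108). CREB5 lost its call without any 1 of the 6 arrays (adjusted p from 0.0562 to 0.104), and FOSL2 without either array at 10 μM (0.0521 and 0.0522).

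Whether the lines responded differently was tested with both doses counted as treated, so that the spread is that between the doses. FOS had a further log2 difference of −4.50 in KKU-100 relative to HuCCT1 (standard error 0.39, unadjusted p = 6.68e-05), FOSB −2.91 (0.22, unadjusted p = 3.18e-05) and JUNB −1.43 (0.48, unadjusted p = 0.0294). None passed after adjustment (limma adjusted p = 0.594, 0.594 and 0.603), and limma called 0% of all probe sets, with 8.21% at an unadjusted p under 0.05. All 3 genes had their highest signal of the 6 arrays on the KKU-100 solvent array, without which this fit cannot be made. FOSB was below the array median on the other 5 arrays. It passed the level filter through that solvent array, so its p cannot be read apart from the filter. FOSL1 stood at −0.32 (standard error 0.38) and JDP2 at −0.09 (0.36). The lowest and highest adjusted p of FOS over the alternatives were 0.161 and 0.999.

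Some genes known as AP-1 targets were lower, and no test was run between the lines. Of 16 targets past the filter in HuCCT1, 8 were lower and 1 higher at each dose, beside 3.32% and 3.68% of all genes at 1 μM and 6.44% and 8.23% at 10 μM, with medians of −0.51 and −0.51. Of 13 in KKU-100, 4 were lower and 0 higher at 1 μM (all genes, 7.32% and 9.75%) and 4 were lower and 2 higher at 10 μM (4.86% and 9.44%), with a median of −0.11 at both doses. PLAUR, the urokinase receptor, was past the cutoff in all 4 comparisons, with signals of 1726.6, 883.6 and 887.7 in KKU-100 and 1195.5, 596.2 and 774.2 in HuCCT1. HBEGF, an EGF receptor ligand, was so too (−2.59 and −1.82 in KKU-100, −1.35 and −1.01 in HuCCT1). MMP1, interstitial collagenase, had signals of 1288.5 with solvent, 342.3 at 1 μM and 384.8 at 10 μM in HuCCT1. MMP10, stromelysin 2, had 80.3, 39.4 and 22.9, and IL11, a cytokine of the interleukin 6 family, 1410.7, 196.7 and 57.5. In KKU-100 these 3 genes were between 11.67 and 30.6 on all arrays. IL6 was higher at 1 μM in HuCCT1 (0.71) and at 10 μM in KKU-100 (0.79). Its signals were 2460.4, 4021.5 and 1885.6 in HuCCT1. In KKU-100 they were 32.6, 30.6 and 56.6, close to the array median with solvent and at 1 μM. LIF, lower in HuCCT1, was higher at 10 μM in KKU-100 (0.59). Over both lines limma called 0 of 16 targets at 10 μM, with 8 lower and 1 higher at an unadjusted p under 0.05, beside 14.9% of all probe sets, and a smallest adjusted p of 0.159.

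**Figure D4:**
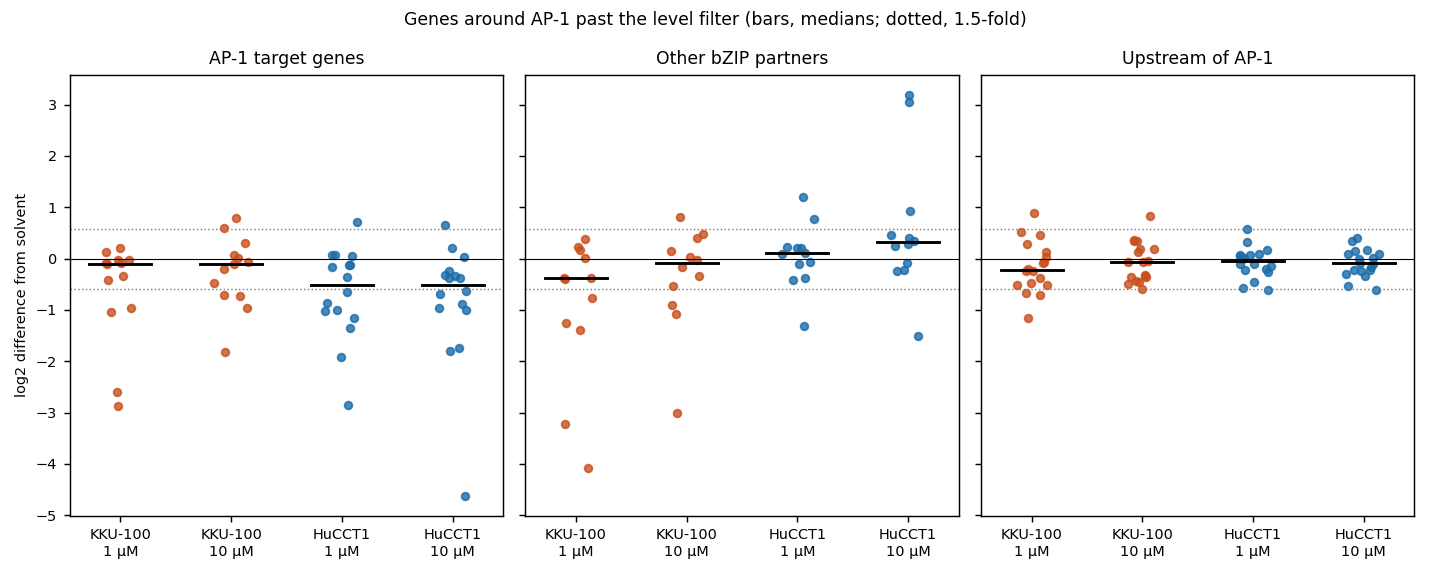
Log2 difference from solvent of genes past the level filter in 3 lists around AP-1, by line (KKU-100 orange, HuCCT1 blue) and dose, 1 array per condition, with bars at the medians and the 1.5-fold cutoff dotted. The AP-1 targets have medians of −0.11 in KKU-100 and −0.51 in HuCCT1 at both doses.

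Other basic zipper partners were found on both sides of solvent. Of 12 past the filter in KKU-100, 5 were lower and 0 higher at 1 μM, beside 7.32% and 9.75% of all genes, and 3 were lower and 1 higher at 10 μM, beside 4.86% and 9.44%. Of 12 in HuCCT1, 1 was lower and 2 higher at 1 μM (all genes, 3.32% and 3.68%), and 1 was lower and 3 higher at 10 μM (6.44% and 8.23%). MAFF, a small MAF protein without an activation domain, was past the cutoff in all 4 comparisons, with signals of 2184.4, 129.1 and 271.5 in KKU-100 and 1974.8, 800.0 and 693.1 in HuCCT1. DDIT3, the stress factor CHOP, had 1176.8, 450.7 and 2066.4 in KKU-100 and 316.1, 726.3 and 2898.0 in HuCCT1. ATF3, a partner of JUN, had 1133.6, 121.2 and 1587.5 in KKU-100, lowest at 1 μM like JUN, and 105.1, 99.9 and 874.9 in HuCCT1. CREM was lower in KKU-100 (−1.26 and −1.09), and ATF4, the factor of the integrated stress response, was higher in HuCCT1 (0.78 and 0.94). Over both lines limma called 0 of 12 at 10 μM (smallest adjusted p 0.22), with 1 lower and 1 higher at an unadjusted p under 0.05, beside 14.9% of all probe sets.

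Of 18 kinases and factors upstream of AP-1 in KKU-100, 3 were lower and 1 higher at 1 μM (all genes, 7.32% and 9.75%), and 1 was lower and 1 higher at 10 μM (4.86% and 9.44%). In HuCCT1 1 was lower and 1 higher at 1 μM (3.32% and 3.68%), and 1 was lower and 0 higher at 10 μM (6.44% and 8.23%). ELK3, an ETS factor that binds with SRF, had −0.51 and −0.49 in KKU-100, inside the cutoff, against −0.61 at each dose in HuCCT1. MAPK8, the kinase JNK1, had −1.17 and −0.59 in KKU-100 and −0.27 and 0.35 in HuCCT1, and MRTFB, a cofactor of SRF, 0.89 and 0.82 in KKU-100 and 0.09 and −0.08 in HuCCT1. Limma called 0 of 18 over both lines at 10 μM (smallest adjusted p 0.174), with 2 lower and 0 higher at an unadjusted p under 0.05, beside the same 14.9%.

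The genes whose 4 log2 differences lay closest to those of FOS, by Euclidean distance among 12832 others, were CCN2 (distance 1.86), MAFF (2.59) and ARRDC4 (2.85). CCN2, a matrix protein, had signals of 6776.6, 147.7 and 191.7 in KKU-100 and 277.8, 114.6 and 77.8 in HuCCT1. The closest to JDP2 were ID3 (0.76), an inhibitor of helix-loop-helix factors, IL15 (0.95), a cytokine, and PPM1H (1.02), a phosphatase. ID3 had 89.0, 377.1 and 356.2 in KKU-100 and 380.9, 991.3 and 1144.0 in HuCCT1. These distances describe 4 differences that share 2 solvent arrays.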

How the data were processed

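Per the labels, total RNA was hybridised as biotin-labelled cRNA. What was deposited is an unlogged signal intensity for every probe set. The submitters' processing notes give MAS5 as the tool the authors used, with no version, and detection calls were not used here. After removal of 62 control probe sets, log2 of the signal was taken with no further scaling, as array medians were 28.8 to 29.3. For a gene with several probe sets annotated to it alone, the one with the highest mean log2 signal over the 6 arrays stood for it. Symbols came from the platform annotation, which named 1 gene for 41091 probe sets, several for 1801 and none for 11721. The level filter was the 50th percentile of mean log2 signal within a line.

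Both lines were fitted together in limma 3.58.1 (R 4.3.3), using lmFit, then eBayes with a mean trend, and Benjamini-Hochberg adjustment over 27307 probe sets. The line was a block, and a further fit took line by treatment with the doses pooled. Each fit has 2 residual degrees of freedom, and its p-values measure only the spread between these arrays. The procedure was tested on simulated data. Motifs and figures were made in Python 3.11.15. The members, lists and tests were chosen with earlier results of these data known. All 10 members are named. From each list up to 4 genes are named, those furthest from solvent at 10 μM among genes past 1.5-fold in one direction at both doses of a line, and also the 3 genes nearest to FOS and to JDP2. ATF3, PLAUR, IL6 and LIF were chosen after their values were seen.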

Additional observations from a re-analysis of the deposited data

Results flagged for a closer look

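JUND stood out because its signal moved in opposite directions in the lines at both doses, upward in KKU-100 (0.28 and 0.58) and downward in HuCCT1 (−0.93 and −0.22). The pooled difference was a log2 of 1.00 with a standard error of 0.46, and it did not pass in limma (unadjusted p = 0.0778, adjusted p = 0.64). As the median over its 4 probe sets the pooled difference was 0.30, with 0.03 and −0.0167 in KKU-100 and −0.28 and −0.30 in HuCCT1, so that the opposite direction at 10 μM was lost.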

How the results depend on the processing

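Quantile normalization, median centring, a floor on low signals, other level filters and other eBayes settings left the limma count of members called at each dose over both lines at 0. Dose as a linear term, run for 10 μM against solvent, also gave 0. The balance stayed negative, between −0.97 and −3.59, under quantile normalization, gene medians, removal of probe sets with several matches, and restriction to members past the filter (chosen after seeing the data). Median centring cannot move it. The −3.59, at 1 μM in KKU-100, came from the removal. All JUND probe sets were removed there, so the activator mean was taken without JUND and is not the same quantity. With the median over the probe sets of a gene, CREB5 at 10 μM in KKU-100 turned to −0.0329 (log2), FOSL2 between the lines to 0.25, and 1 member was higher at 10 μM in KKU-100, as also with the filter at the 60th percentile. A 2-fold cutoff left 2 members lower at 1 μM and 1 at 10 μM in HuCCT1. The share of all genes was not taken with gene medians, the 60th percentile filter or the 2-fold cutoff. Between the lines, 5976 genes passed with gene medians and 8126 probe sets without those whose IDs mark several matches, against 13962. Run as a test paired by line, the methods' t-test called 5 probe sets at 10 μM after adjustment. It had 1685 of 27307 at an unadjusted p under 0.05, with FOSL1, JDP2 and BATF3 among them. BATF3 was there with close values of 0.32 in KKU-100 and 0.33 in HuCCT1, both within the cutoff. The paper states this test for repeated independent experiments, whereas here it rested on 1 difference per line.

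Leaving out 1 array at a time gave 0 to 1645 probe sets called at 1 μM, 0 to 669 at 10 μM, 0 to 227 between the doses and 9175 to 14731 between the lines. The members called ranged from 0 to 6 at 1 μM, 0 to 6 at 10 μM and 0 to 2 between the doses. The highest counts came without a solvent array. The response difference could not be fitted without a solvent array. The labels carry no replicate numbers, so the line was the block in the fits. The number of arrays limits the precision, and dim probe sets such as those of FOSB in HuCCT1 have little room to be lower.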
